A study of Homo sapiens with 6 samples.

Results

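The genes described here encode the anaphase-promoting complex (APC/C) and the proteins that work with it to end mitosis. They are 34 genes, taken by symbol from a table of 59251 gene rows: 14 APC/C subunits, 2 activators, 2 ubiquitin-conjugating enzymes, 1 inhibitor, the substrate securin and its partner separase, 4 genes of the CDK1 and cyclin B axis, 3 of the Greatwall pathway and 6 of mitotic exit phosphatases. All were measured in total RNA of HCT116, a colorectal carcinoma cell line of human origin. Of the 6 libraries, 3 came from wild-type cells (WT) and 3 from cells homozygous for an asparagine-to-serine substitution of eIF6 named N106S (MUT), made as clones by CRISPR/Cas9 editing. eIF6 binds the large ribosomal subunit and keeps it from joining the small subunit. The title of the study names mitotic exit as a process limited by targeting eIF6, and the comparison of MUT with WT shows whether the RNAs of the exit machinery differed. Whether replicates were separate cultures or clones is not stated in the labels. The p-values therefore reflect the variation among these 6 libraries alone, and that variation may be technical. Because the MUT cells were made as clones, effects of the edit and of clonal origin cannot be told apart here. Ribosome profiling named in the study's design was not analysed here.

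The APC/C is a large ubiquitin ligase. With its activator CDC20 it marks securin and cyclin B for destruction at the start of anaphase, which frees separase to cut cohesin and switches off CDK1. Its other activator, CDH1 (encoded by FZR1), keeps it active from late mitosis through G1, and phosphatases held back by the Greatwall kinase during mitosis remove the phosphates that CDK1 placed. Many of these proteins are made from RNAs that accumulate in G2 and mitosis, so in a bulk culture a different number of cells in these phases and a different amount of RNA per cell cannot be told apart.

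Promoters of genes transcribed in G2 and M often carry a cell cycle genes homology region (CHR, searched as TTTGAA), which MuvB complexes bind, and CCAAT boxes, which NF-Y binds. The 150 bases before the transcription start are shown for CDC20, CCNB2 and ESPL1, members whose RNA is known to peak in G2 and M. These 3 hold both motifs. They are followed by CCNB1, which holds CCAAT but not the letters TTTGAA, and by the subunit gene CDC16, which holds neither in this stretch. Other forms of the CHR were not searched. The sequences are RefSeq's on GRCh38.p14, written 5′ to 3′ on the gene's strand, with capitals marking TTTGAA or CCAAT on either strand (TTCAAA and ATTGG on the other).
CDC20 (chr1:43358831-43358980, + strand): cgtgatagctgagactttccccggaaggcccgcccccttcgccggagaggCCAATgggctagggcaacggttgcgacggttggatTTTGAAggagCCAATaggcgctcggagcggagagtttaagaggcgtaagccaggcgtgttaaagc
CCNB2 (chr15:59104996-59105145, + strand): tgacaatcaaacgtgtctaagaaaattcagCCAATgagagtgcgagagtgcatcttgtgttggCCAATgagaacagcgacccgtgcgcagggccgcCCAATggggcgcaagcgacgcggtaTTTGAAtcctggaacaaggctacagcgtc
ESPL1 (chr12:53268149-53268298, + strand): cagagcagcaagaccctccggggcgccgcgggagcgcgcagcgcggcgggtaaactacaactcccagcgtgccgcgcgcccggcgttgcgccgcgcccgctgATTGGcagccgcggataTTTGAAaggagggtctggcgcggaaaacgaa
CCNB1 (chr5:69167000-69167149, + strand): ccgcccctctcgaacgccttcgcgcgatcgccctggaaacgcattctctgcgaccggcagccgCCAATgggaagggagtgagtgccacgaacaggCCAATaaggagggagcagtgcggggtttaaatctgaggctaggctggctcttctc
CDC16 (chr13:114234747-114234896, + strand): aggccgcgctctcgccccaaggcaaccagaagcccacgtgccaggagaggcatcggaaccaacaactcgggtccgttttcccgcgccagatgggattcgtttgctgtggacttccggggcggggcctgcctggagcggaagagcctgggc
RefSeq promoter windows of 300 bases were at hand for 31 of the 34 genes. In the 9 members known for G2 and M transcription (CDC20, UBE2C, UBE2S, PTTG1, ESPL1, CDK1, CCNB1, CCNB2 and CDC25C), 8 of which had windows, TTTGAA stood in 7 of 13 windows (53.8%) and CCAAT in 11 of 13 (84.6%). In the other members it was 7 of 43 windows (16.3%) and 16 of 43 (37.2%), and over all RefSeq windows it was 15.2% and 34.6%. Both motifs stood together in 7 of 13 windows of the first group, 1 of 43 of the second (FBXO5) and 5.90% of all windows. Some genes have several windows that overlap, the motifs can share 1 base, and a match describes letters alone.

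Total counts were between 53986494 and 87656970 per library. Signal recognition particle RNA, 7SK, RPPH1, RMRP and ribosomal RNA took 66.6% to 84.2% of them, and 29228 to 59190 counts per library fell on the 34 genes. The ribosomal RNA share was highest in MUT replicate 2 (3.91%) and WT replicate 1 (1.16%), against 0.0891% to 0.234% in the other libraries. EIF6 RNA had 43.3, 47.9 and 47.4 CPM (counts relative to the TMM-scaled library size) in WT and 36.7, 30.7 and 35.7 in MUT (log2 fold change -0.43, SE 0.12, edgeR adjusted p = 0.110). The edit is a substitution, so this level does not check the genotype. Of 8 epithelial markers, KRT8, KRT18, KRT19 and EPCAM were well detected, the E-cadherin gene CDH1 (not the activator that shares its name) was below 1 CPM, CEACAM5 was at 0 in every library and CDH17 and VIL1 were near 0. The list summed to 409 to 449 CPM in WT and 449.8 to 497 in MUT, most of it keratins. KRT8 (0.32) was above WT in every MUT library, while EPCAM (-0.34) and CDH1 (-1.23) were below, with none called. Leukocyte markers summed to at most 1.43 CPM, nearly all of it CD68, with PTPRC and CD3E at 0, and fibroblast and endothelial markers to at most 1.07 CPM, mostly COL1A1.

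Of the 34 genes 33 passed the filter on low counts. The exception was PPP2R2B, a regulatory subunit of the phosphatase PP2A, with 1 count in WT replicate 1 and 0 in the others. No member differed at an edgeR quasi-likelihood adjusted p below 0.05. Over all genes, 0.986% were called higher and 0.925% lower (283 of 14808). The members' adjusted p-values ran from 0.178 to 0.981. Their median log2 fold change was -0.03, beside -0.01 over all tested genes, with 15 members above 0 and 18 below. The 95% interval lay within 1.5-fold in either direction for 24 of 33 members and within 2-fold for 32, CDC26 being the exception, and the median standard error was 0.14 on the log2 scale against 0.21 for all genes. At an unadjusted p below 0.05 there were 5 members, 2 higher (6.06%, against 9.79% of all genes) and 3 lower (9.09%, against 9.84%). The 3 MUT libraries lay above all WT libraries for 3 members (9.09%, against 12.8% of all genes) and below them for 5 (15.2%, against 13.4%).

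**Figure D1:**
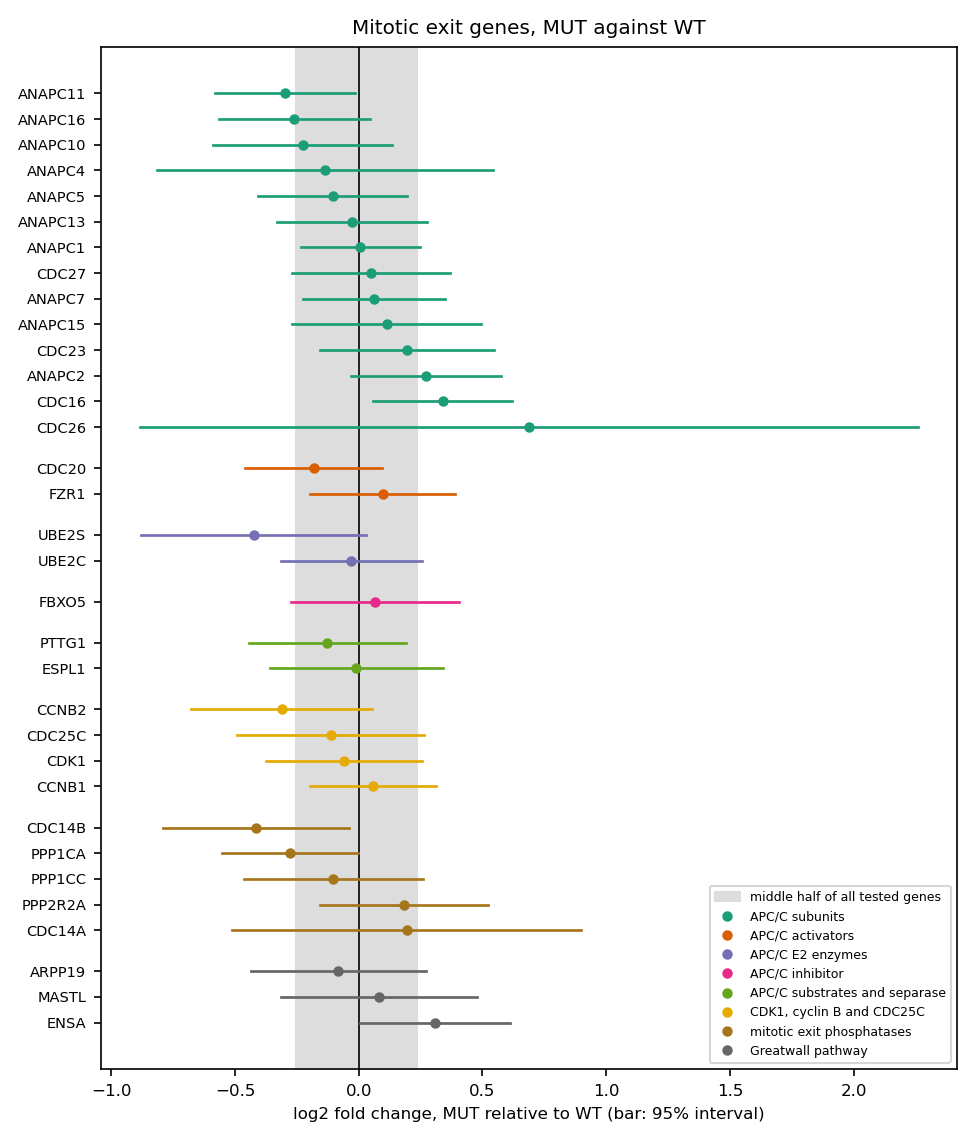
Log2 fold change of MUT relative to WT for each tested member, grouped by role, with 95% intervals as bars and 3 libraries a group. The grey band is the interquartile range of all tested genes. CDC26 has the widest interval, and no member was called at an adjusted p below 0.05.

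Levels between genes were compared in TPM, the deposited unit that divides by transcript length as well as depth. ANAPC11, the RING subunit that brings in the ubiquitin-conjugating enzyme, was the most abundant member RNA in WT at 24.7, 38.2 and 19.5 TPM. UBE2S, PTTG1, UBE2C and PPP1CA followed with WT means of 22.9, 17.6, 17.2 and 12.3 TPM. From ANAPC11 to PPP1CA, the WT ranges of neighbours in this order overlapped. At the other end stood ESPL1 at a mean of 0.12 TPM and CDC14A at 0.0367. The order of the leading 9 members was the same in MUT except that PTTG1 and UBE2C exchanged places. TPM was higher in MUT replicate 2 than in the other MUT libraries for all members plotted, in the library with the smallest share of abundant small RNAs, so TPM is used here for order and ratios within a library.

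**Figure D2:**
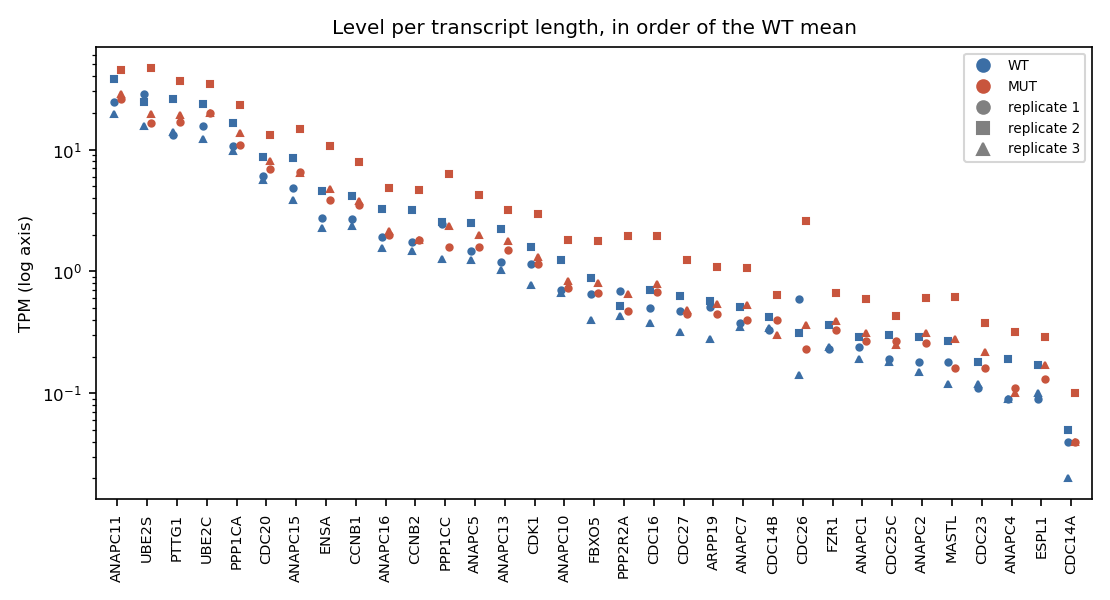
TPM (log axis) of the 33 tested members in each library, ordered by the WT mean, with colour for genotype and shape for replicate. Levels run from ANAPC11, with a WT mean of 27.4 TPM, to CDC14A at 0.0367, and squares in red (MUT replicate 2) lie above the other MUT libraries.

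Among the 14 subunits, 3 had no overlap between the groups. CDC16 (chr13:114234897-114272723), a scaffold subunit with tetratricopeptide repeats, had 4.87, 5.04 and 4.74 CPM in WT and 5.73, 7.14 and 5.65 in MUT. Every MUT library was above every WT library, with MUT replicate 2 the highest (log2 fold change 0.34, SE 0.12, edgeR adjusted p = 0.178). ANAPC2 (chr9:137174784-137188560), the cullin subunit that holds ANAPC11, had 2.06, 2.36 and 2.18 CPM in WT and 2.62, 2.77 and 2.56 in MUT. Its groups did not overlap either (0.27, SE 0.13, adjusted p = 0.308). ANAPC11 (chr17:81890790-81900533) went the other way, with 70.0, 74.2 and 66.1 CPM in WT and 60.6, 54.9 and 55.6 in MUT. All 3 MUT libraries were below WT (-0.30, SE 0.13, adjusted p = 0.233). The catalytic partners ANAPC2 and ANAPC11 thus had values on opposite sides of 0, neither past the threshold.

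ANAPC16 (chr10:72216012-72235860), a small subunit, had 29.6, 34.2 and 28.6 CPM in WT and 25.2, 29.1 and 22.9 in MUT. Only MUT replicate 2 reached into the WT range (-0.26, SE 0.13, edgeR adjusted p = 0.333). ANAPC10 (chr4:144994575-145098571), which helps bind the degradation motifs of substrates, had 4.78, 5.53 and 5.30 CPM in WT and 3.93, 5.55 and 3.82 in MUT. The highest of the 6 libraries was MUT replicate 2, and the other MUT libraries were the lowest (-0.23, SE 0.16, adjusted p = 0.485). CDC23 (chr5:138187650-138213323), another repeat subunit, had 1.69, 1.84 and 2.04 CPM in WT and 1.92, 2.19 and 2.26 in MUT, with overlap (0.20, SE 0.16, adjusted p = 0.550). The remaining 7 subunits apart from CDC26 had log2 fold changes between -0.14 (ANAPC4) and 0.11 (ANAPC15), and all overlapped. For ANAPC1, the largest scaffold subunit, the interval allowed a ratio of 0.850 to 1.19.

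CDC26 (chr9:113266992-113275572), a small subunit that stabilises CDC16, had counts that varied widely between libraries, as did those of its pseudogene. Its counts were 221, 79 and 37 in WT and 75, 576 and 79 in MUT, and those of CDC26P1 were 96, 281 and 159 in WT and 203, 9 and 168 in MUT. The libraries with low CDC26P1 counts, WT replicate 1 and MUT replicate 2, were those with the most CDC26 counts in their group and the most ribosomal RNA. Counts of both rows added gave 317, 360 and 196 in WT and 278, 585 and 247 in MUT. With the sum in place of the gene, the log2 fold change went from 0.69 (SE 0.69) to -0.01 (SE 0.18, interval -0.41 to 0.39), with the groups overlapping. For ANAPC1, pseudogene rows held 21.3% to 35.4% of the joint counts, and the joint value was -0.03.

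**Figure D3:**
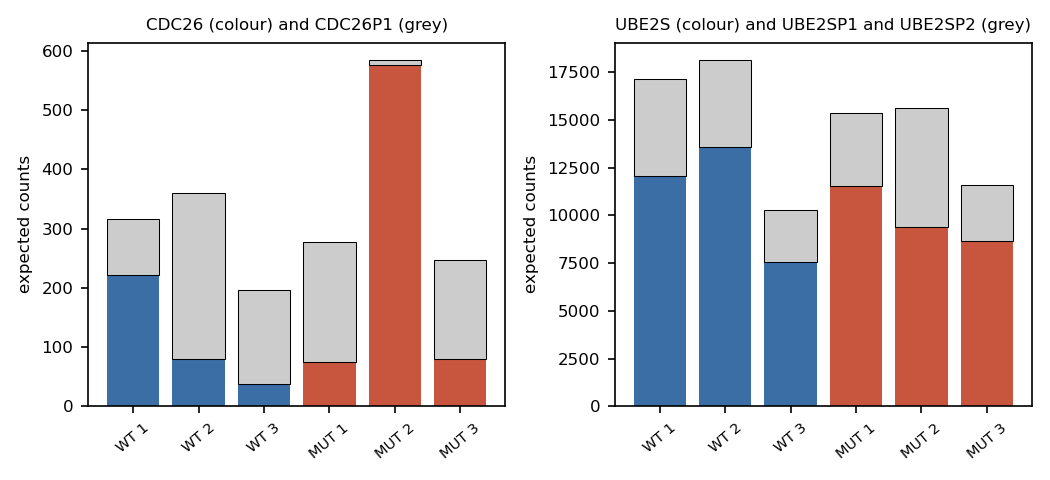
Expected counts per library of CDC26 and UBE2S (coloured, blue for WT and red for MUT) stacked on those of their pseudogenes (grey), both axes from 0. CDC26P1 held 9 counts in MUT replicate 2 and 203 in MUT replicate 1, while the UBE2S pseudogenes held 24.9% to 39.8% of the joint counts.

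As a sum, the 14 subunits took 0.00420% ± 0.00153 of all TPM in WT and 0.00562% ± 0.00230 in MUT (SD, n = 3 each; exact permutation p = 0.5), with overlap. Without MUT replicate 2 the difference was 9.63e-05 percentage points. Of the TPM of protein-coding genes alone they took 0.0746% ± 0.00531 and 0.0832% ± 0.00474, where the groups did not overlap (exact permutation p = 0.1, the smallest that 3 against 3 libraries can give). The gap was narrow, with 0.0779% in WT replicate 2 and 0.0782% in MUT replicate 1. ANAPC11 alone supplied 66.0%, 64.7% and 65.9% of the subunits' TPM in WT and 63.7%, 54.4% and 63.6% in MUT. Its share was lower in every MUT library, and lowest in MUT replicate 2. In CPM, where ANAPC11 also has the most counts, the subunits summed to 167 to 191 in WT and 149.8 to 177 in MUT. This sum overlapped and lay lower in MUT at both ends of its range, while the TPM shares had a higher mean in MUT.

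Of the activators, CDC20 (chr1:43358981-43363203) had 45.7, 45.4 and 51.4 CPM in WT and 44.0, 38.8 and 42.8 in MUT. All MUT libraries were below WT, by a small margin (-0.18, SE 0.12, edgeR adjusted p = 0.462). The value was -0.11 without WT replicate 3, -0.11 without MUT replicate 2 and 0.024 on log2(TPM + 1) relative to all genes. FZR1 (chr19:3506311-3538334) had 3.55, 3.81 and 4.63 CPM in WT and 4.33, 4.06 and 4.39 in MUT, all within the WT range (0.10, SE 0.13, adjusted p = 0.748). The ratio of CDC20 to FZR1 in TPM was 26.2, 24.2 and 23.6 in WT and 21.2, 19.5 and 20.7 in MUT. This ratio of mitotic to late activator was lower in each MUT library (log2 difference -0.27, exact permutation p = 0.1), in counts too (-0.28). With 1 TPM added to both genes the difference turned to 0.20. FZR1 is below 1 TPM, and with 1 TPM added a ratio depends on scaling between libraries. FBXO5, which encodes the APC/C inhibitor EMI1, had 5.69 ± 0.89 CPM in WT and 5.96 ± 0.80 in MUT (SD, n = 3), and its ratios to CDC20 and to FZR1 overlapped between the groups.

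Of the 2 ubiquitin-conjugating enzymes, UBE2C, which places the first ubiquitins, had 46.4, 46.3 and 41.0 CPM in WT and 47.0, 44.3 and 39.6 in MUT. The groups covered the same range, and the interval allowed a ratio of 0.803 to 1.19. UBE2S (chr19:55399745-55407788), which extends the chains, had 174, 181 and 175 CPM in WT and 154, 96.6 and 145 in MUT. All MUT libraries were below WT, MUT replicate 2 by far (-0.42, SE 0.20, edgeR adjusted p = 0.287), and without that library the value was -0.22 (adjusted p = 0.572). With counts of its pseudogenes UBE2SP1 and UBE2SP2 added, the value was -0.38 (SE 0.17, adjusted p = 0.269), still without overlap. Counts per TPM of UBE2S, set against its median over libraries, were 0.654 in WT replicate 1 and 0.576 in MUT replicate 2 and between 0.984 and 1.11 in the other 4. Those are the libraries with the most ribosomal RNA, and in the other 4 the UBE2S value was -0.23 (adjusted p = 0.609).

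**Figure D4:**
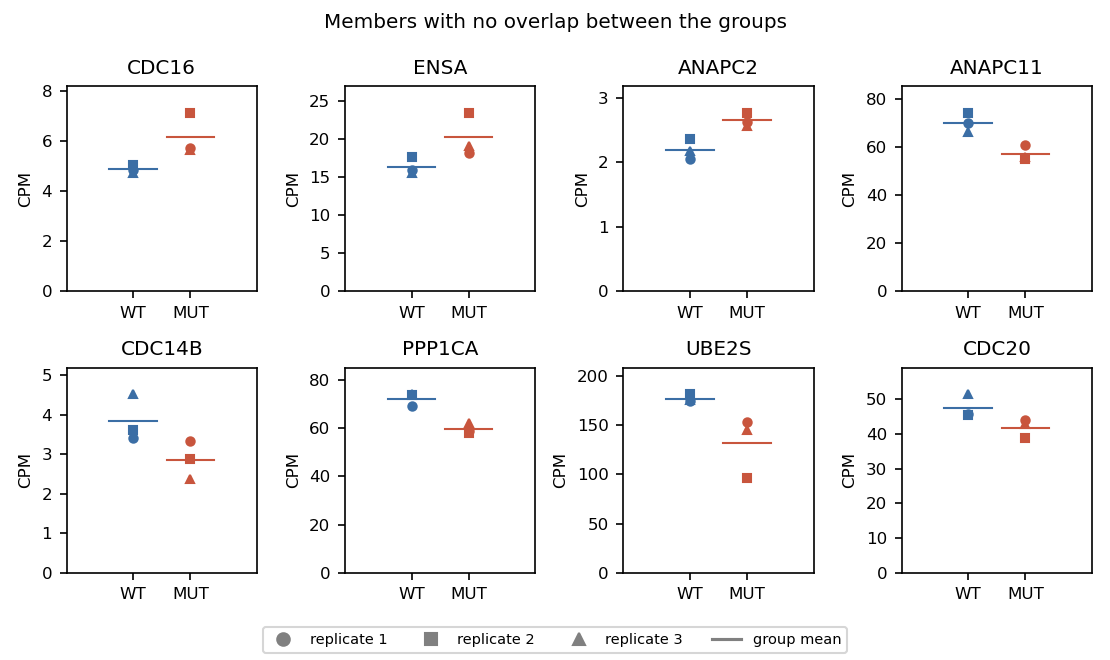
CPM of the 8 members whose 3 WT and 3 MUT libraries do not overlap, 1 panel a gene with its own axis from 0, points for libraries and lines for group means. UBE2S reaches 96.6 CPM in MUT replicate 2, and the gap between the groups is narrow for CDC20, CDC14B and ENSA.

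Securin, encoded by PTTG1 (chr5:160421855-160428744), holds separase inactive until the APC/C destroys it. PTTG1 had 50.1, 60.1 and 55.2 CPM in WT and 48.1, 57.4 and 46.0 in MUT, with overlap (-0.13, SE 0.14, edgeR adjusted p = 0.687). ESPL1 (chr12:53268299-53293638), encoding separase, had 2.40, 3.11 and 3.45 CPM in WT and 2.86, 2.92 and 3.10 in MUT. Its MUT libraries all lay inside the WT range (-0.01, SE 0.15, adjusted p = 0.981). The PTTG1 to ESPL1 ratio in TPM was 146, 152 and 138 in WT and 131, 125 and 112 in MUT, without overlap (log2 difference -0.24, exact permutation p = 0.1). In counts the groups overlapped (-0.13). Counts per TPM, set against each gene's median over libraries, were 1.18 for PTTG1 and 1.04 for ESPL1 in WT replicate 1. In MUT replicate 2 they were 1.29 and 1.04. With 1 TPM added to both genes the difference turned to 0.33, but ESPL1 is below 1 TPM and such a ratio depends on scaling between libraries.

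Cyclin B1 RNA did not differ detectably. CCNB1 (chr5:69167150-69178245) had 24.1, 26.4 and 25.3 CPM in WT and 26.8, 27.6 and 24.5 in MUT, and its interval allowed a ratio of 0.873 to 1.24 (edgeR adjusted p = 0.832). CCNB2 (chr15:59105146-59125045), the second B-type cyclin, had 11.9, 14.98 and 11.96 CPM in WT and 10.3, 12.4 and 8.61 in MUT. The value of MUT replicate 2 lay among those of WT, and the other MUT libraries below them (-0.31, SE 0.16, adjusted p = 0.333). The CCNB1 to CCNB2 ratio in TPM was 1.54, 1.31 and 1.60 in WT and 1.93, 1.69 and 2.10 in MUT. It was higher in each MUT library (log2 difference 0.36, exact permutation p = 0.1), in counts too (0.38). CDK1 (chr10:60778331-60794852), their kinase, had 10.1, 9.49 and 8.01 CPM in WT and 8.27, 10.2 and 7.99 in MUT, with overlap (-0.06, adjusted p = 0.862). CDC25C, the phosphatase that activates CDK1, had 1.78 ± 0.054 and 1.65 ± 0.23 CPM (SD, n = 3).

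In the Greatwall pathway, MASTL (the Greatwall kinase) phosphorylates ENSA and ARPP19, which then inhibit PP2A bound to its B55 subunit. MASTL (chr10:27154479-27187953) had 2.75, 3.38 and 2.52 CPM in WT and 2.48, 3.54 and 3.17 in MUT, with overlap (0.08, SE 0.17, edgeR adjusted p = 0.849). ENSA (chr1:150621246-150629612) had 16.0, 17.6 and 15.5 CPM in WT and 18.2, 23.5 and 19.1 in MUT. All MUT libraries were above WT, MUT replicate 2 most (0.31, SE 0.13, adjusted p = 0.250), and without that library and WT replicate 1 the value was 0.19. ARPP19 had 10.4 ± 2.2 CPM in WT and 9.85 ± 0.70 in MUT (SD, n = 3). The ENSA to ARPP19 ratio in TPM was 5.41, 7.95 and 8.07 in WT and 8.53, 9.91 and 8.70 in MUT, higher in each MUT library (log2 difference 0.36, exact permutation p = 0.1), and 0.36 also in counts. Without WT replicate 1 the difference in TPM was 0.17.

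Among the phosphatases, PPP1CA (chr11:67398183-67401858), a catalytic subunit of PP1, had 69.3, 73.7 and 74.0 CPM in WT and 58.8, 58.1 and 62.1 in MUT. The MUT values were close together and all below WT (-0.28, SE 0.12, edgeR adjusted p = 0.250). PPP1CC, encoding another PP1 catalytic subunit, had 19.8 ± 2.8 CPM in WT and 18.4 ± 3.0 in MUT (SD, n = 3). CDC14B (chr9:96490939-96619843), a dual-specificity phosphatase, had 3.40, 3.61 and 4.51 CPM in WT and 3.33, 2.89 and 2.38 in MUT. The groups did not overlap, though WT replicate 1 and MUT replicate 1 were close (-0.41, SE 0.17, adjusted p = 0.212). CDC14A, its paralogue, had 14 to 50 counts per library and a value of 0.19 (SE 0.31). PPP2R2A (chr8:26291508-26372680), a B55 subunit of PP2A, had 6.57, 6.16 and 4.72 CPM in WT and 6.39, 7.49 and 5.97 in MUT, with overlap (0.18, SE 0.15, adjusted p = 0.567).

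Ratios were compared for 12 partner pairs, since a ratio within a library does not depend on scaling between libraries. The 4 given above had no overlap in TPM, each with an adjusted p of 0.3 over the 12 pairs by the exact permutation test. Of all pairs of tested genes with TPM above 0 in every library, 22.1% had none. In counts, UBE2C to UBE2S (log2 difference 0.42) and CDC14A to CDC14B (0.65) also had no overlap. The share of all gene pairs without overlap in counts was not computed, and CDC14A had only 14 to 50 counts per library.

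**Figure D5:**
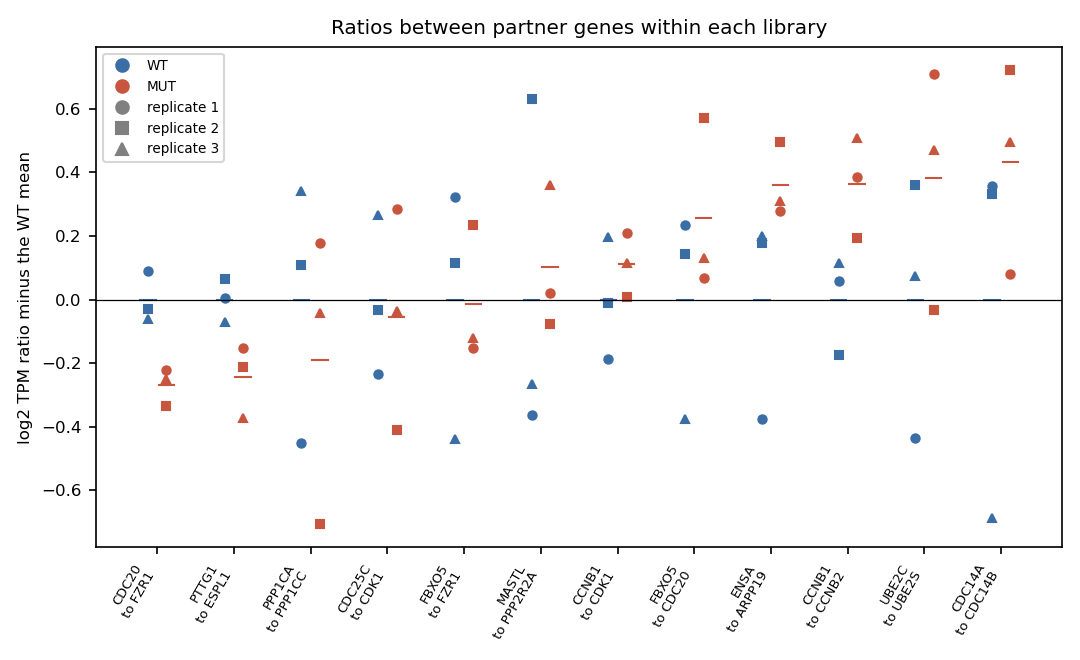
Log2 ratio of TPM between partner genes in each library, minus the WT mean of that pair, with bars for group means, colour for genotype and shape for replicate. CDC20 to FZR1 and PTTG1 to ESPL1 lie below WT in every MUT library, CCNB1 to CCNB2 and ENSA to ARPP19 above, and the other 8 pairs overlap.

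Of the 9 members known for G2 and M transcription, whose promoters were described first, 8 had values below 0 and CCNB1 alone was above. Of these signs ESPL1's (-0.01) turned in 12 of 16 alternatives and UBE2C's (-0.03) in 7 of 19. Their median was -0.11 with 0 called, and it was 0.024 on log2(TPM + 1), 0.0058 on log2(FPKM + 1), both relative to all genes, and -0.027 without WT replicate 2. Of the other 24 tested members 14 were above 0 and 10 below, with a median of 0.06. Over all 14808 tested genes 7207 were above 0 and 7601 below. Of 23 further APC/C substrates, described below, 9 were above 0 and 14 below. The contrast between the 9 and the other members is a description without a test. MUT replicate 2 was the library farthest from its group's median for 19 of 33 members.

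Tested genes within 1 Mb of the 8 members without overlap, with a mean log2 CPM above 0, had medians between -0.23 and 0.12. Around CDC16 the median of 10 neighbours was -0.02, around ENSA that of 41 was -0.13, and around ANAPC11 that of 50 was 0.00. Around CDC14B, 6 of 8 neighbours were below 0 like CDC14B itself (median -0.23).

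Other genes of the pathway gave 1 called gene in 93 tested (1.08%), against 1.91% of all tested genes. It was RBBP4, a histone-binding subunit of the MuvB complex, with 13.3, 12.9 and 13.6 CPM in WT and 9.39, 8.28 and 8.78 in MUT. RBBP4 fell by 0.59 on the log2 scale (SE 0.11, edgeR adjusted p = 0.0355). The call was lost without any 1 library other than MUT replicate 2 (adjusted p from 0.0928 to 0.151, values from -0.64 to -0.56). It was also lost without both WT replicate 1 and MUT replicate 2 (0.0647). RBBP4 was not called with library size alone (0.928) or on log2(FPKM + 1) (0.921), but those p-values kept a shift of all genes. The medians over all genes were 0.54 and 0.33 there, and relative to these RBBP4 was at -0.59 and -0.37. It was 1 of 15 tested genes in the list of MuvB, FOXM1 and B-MYB regulators, whose median was -0.08. None of the other 6 lists had a called gene. The mitotic checkpoint complex holds CDC20 back until chromosomes are attached. Over 9 genes of this complex and its regulators, the median was -0.05 and MAD2L1 had the smallest p (-0.45, adjusted p = 0.134). Of 23 further APC/C substrates the median was -0.08, led by the thymidine kinase TK1 (-0.49, adjusted p = 0.0805). All MUT libraries lay below all WT libraries for 9 of the 23, against 13.4% of all genes, and above them for 3, against 12.8%. They also lay below for 4 of 15 genes in the MuvB list, 2 of 9 in the checkpoint list and 0 of 11 in the cohesin list. For other PP2A and PP1 subunits it was 2 of 15, for other CDK1 regulators 2 of 10 and for ubiquitin regulators 1 of 10. In these 6 lists they lay above for 2 genes of the MuvB list and 0 elsewhere. The lists were chosen with earlier results of these data known, and none was tested as a set.

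Cohesin, which separase cuts, had a median of -0.02 over 11 genes, with RAD21, the subunit that is cut, at -0.43 (edgeR adjusted p = 0.168). Other PP2A and PP1 subunits had a median of 0.00 over 15 genes (PPP1R2 at -0.29, adjusted p = 0.202), and other CDK1 regulators -0.13 over 10 (CKS2 at -0.47, adjusted p = 0.178). Ubiquitin regulators had -0.17 over 10 genes (UBE2D1 at -0.46, adjusted p = 0.116). Without MUT replicate 2, where 1.36% of 15262 genes were called lower and 1.53% higher, MAD2L1 (-0.58, adjusted p = 0.0302) and RAD21 (-0.57, adjusted p = 0.0475) passed the threshold, RBBP4 did again (-0.52, adjusted p = 0.0362), and 0 members did.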

How the data were processed

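RNA of 3 WT and 3 MUT libraries was analysed, grouped by the titles. The authors deposited expected counts, FPKM and TPM for 59251 gene symbols. Tools listed in the submitters' processing notes, with no role given, were RSEM 1.2.28, STAR 2.5.2b, DESeq2 1.42.0 and FastQC 0.12.1, and the build was hg38. The expected counts deposited were whole numbers, so rounding changed none. FPKM and TPM deposited by the authors are scaled for depth and transcript length, and TPM served for levels between genes and ratios. How reads that fit both a gene and its pseudogene were assigned is not given in the sources used here.

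Counts were fitted in R 4.3.3 with edgeR 4.0.16: filterByExpr (minimum count 10, total 15), TMM scaling and the quasi-likelihood F-test over 14808 genes, with Benjamini-Hochberg adjustment and calls below 0.05. Standard errors are the log2 fold change over the square root of F, and intervals are 95%. The procedure was also run on counts simulated with the spread estimated from these libraries. That simulation held no outlying library, so it does not show how such a library was handled. Alternatives were other scalings and filters, a replicate block, DESeq2 1.42.0, limma 3.58.1 (voom, and log2 TPM or FPKM with a pseudocount of 1 or 0.1), and leaving libraries out. Adding pseudogene counts, the neighbours within 1 Mb and the background over all gene pairs were chosen after seeing the data.

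The members, lists and pairs were chosen with earlier results of these data known. Per-library values are given for the 14 members with the smallest p and for 11 central genes fixed by role, some of them in both sets, other members by mean or range. Each pathway list gives its called genes, at most 3, or the gene with the smallest p. Coordinates and promoters are RefSeq's, GRCh38.p14. Ratios were tested by two-sided exact permutation. The pair PPP2R2A to PPP2R2B was left out because PPP2R2B was at 0. No 2 libraries of a group agreed within counting noise (chi-square per degree of freedom 23.6 or more).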

Additional observations from a re-analysis of the deposited data

How the results depend on the processing

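No member was called with any library left out, under any other scaling, with DESeq2, voom or on TPM or FPKM. With the low-count filter removed 1 was, CDC26 (adjusted p = 0.0306), whose value moved to -0.01 with its pseudogene's counts added. On TPM 15 members were tested and on FPKM 28. These fits and library size alone tested against 0 without removing a shift of all genes (medians from 0.33 to 0.54). Calls there therefore cannot show whether a member or another gene differed from the rest of the table. The number of genes called over the whole table was 283 and became 108 with library size alone, 1195 with no low-count filter, 462 with at least 1 CPM in 3 libraries, 764 with DESeq2, 21 on log2(TPM + 1), 10 on log2(TPM + 0.1), 13 on log2(FPKM + 1), and 27 to 442 with 1 library left out. Called pathway genes outside the members were 0 with library size alone and on all TPM and FPKM scales, 2 with DESeq2, 2 without both WT replicate 1 and MUT replicate 2, and 0 to 3 with 1 library left out. Library size alone moved the median of all genes to 0.54, of the members to 0.52 and of the G2 and M members to 0.44. The G2 and M median, -0.11, was 0.024 on log2(TPM + 1) and 0.0058 on log2(FPKM + 1), relative to all genes, and -0.13 to -0.027 with 1 library left out. With a pseudocount of 1 TPM, 2 of 12 ratios had no overlap, and CDC20 to FZR1 (0.20) and PTTG1 to ESPL1 (0.33) changed sign. FZR1 and ESPL1 are below 1 TPM, and with 1 TPM added a ratio depends on scaling between libraries. These signs therefore cannot show whether the ratio itself turned. The subunits' share differed by 0.00142 percentage points of all TPM and 0.00860 of protein-coding TPM. With the replicate number as a block 296 genes and 0 members were called, and the members' median was -0.02. In their deviations from the group means, same-numbered libraries correlated at -0.29, -0.04 and 0.22, and WT replicate 1 with MUT replicate 2 at 0.37. Deviations within a group of 3 depend on each other, so this cannot decide whether the numbers pair the samples. Changes under about 1.5-fold in single members, and some larger changes, may be missed with 3 libraries a group. The interval reached 1.5-fold for 9 of 33 members. The limit is greatest for CDC26, CDC14A and ANAPC4, the members with the widest intervals.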
